A study of Homo sapiens with 12 samples.

Results

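Planar cell polarity genes encode the proteins that give cells a shared direction within the plane of a tissue. The genes examined are the transmembrane proteins VANGL1 and VANGL2, the atypical cadherins CELSR1, CELSR2 and CELSR3, the Wnt receptors FZD3 and FZD6, the cytoplasmic proteins PRICKLE1 and PRICKLE2, and the scaffold SCRIB. They were selected by symbol from a table of raw counts with 21569 genes, where 9 of these 10 genes have a row and all 9 could be tested. PRICKLE2 is not analysed here. The group was put forward with results of these data known, the low VANGL2 RNA of the knockout clones among them. Its values are therefore given as a description, with fold changes and standard errors, and without p-values.

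The cells were TC71, a human Ewing sarcoma line grown in DMEM with 10% fetal bovine serum, and polyadenylated RNA was sequenced from 12 libraries, 3 in each of 4 groups. ID2, a protein without a DNA-binding region that pairs with basic helix-loop-helix factors and keeps them off DNA, was wild-type in the first group. It was knocked out in clone 1 and in clone 2, and the fourth group was clone 2 with an ID2 rescue. Each knockout group is 1 clone, the libraries labelled rescue come from clone 2, and the labels name no separate culture for any library. The spread within a group may thus be technical, and an effect of the knockout cannot be told apart from a feature of 1 clone where the clones differ. Where the clones agree, it cannot be told apart from an effect of cloning, which the labels do not name for the wild-type cells.

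In polarised cells, CELSR proteins on neighbouring membranes bind one another, with FZD3 and FZD6 gathered on one side of the cell and VANGL proteins on the other. PRICKLE proteins bind VANGL from inside the cell, and Dishevelled proteins bind the Frizzled receptors. The Wnt ligand WNT5A and the receptors ROR1, ROR2, RYK and PTK7 feed into this system, and small GTPases, formins and the JNK kinases act below it on the cytoskeleton. In tumour cells the same genes are studied for their part in migration.

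Libraries held 19420408 to 29748084 counts, and levels below are CPM, the read counts of a gene relative to its library total, after scaling of library sizes by the trimmed mean of M values (TMM), as mean ± SD of 3 libraries unless all 3 are listed. ID2 RNA was 77.9 ± 0.657 CPM in wild-type cells, 18.1 ± 0.777 in clone 1, 50.9 ± 3.16 in clone 2 and 41.5 ± 0.537 in the libraries labelled rescue. The rescue libraries were lower than clone 2 in ID2 RNA, so their label was not matched by the RNA of the gene. The 9 Ewing sarcoma markers all had a row and summed to 2760 to 3230 CPM over the 12 libraries, lowest in the libraries labelled rescue. Of 5 simple epithelium markers, 4 had a row and summed to 115 to 122 CPM in wild-type cells, 883 to 951 in clone 1, 152 to 191 in clone 2 and 76.9 to 86.7 in the libraries labelled rescue, while CDH1 had none. KRT8, a keratin of simple epithelium, made up much of the clone 1 sum with 504.4 CPM. The 2 blood markers with a row, of 4, summed to 3.41 to 16.9 CPM. CD79A made up nearly all of this sum and was highest in clone 2, at 13.8 CPM, while PTPRC had 4 to 8 reads per group. Of 3 endothelium markers only CDH5 had a row, with 3 to 12 reads per group. The part of these differences in the results was not tested. In bulk RNA, fewer cells that express a gene and less RNA per cell cannot be told apart.

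VANGL2 RNA was nearly absent from both knockout clones and was not detected in the libraries labelled rescue. The gene (ENSG00000162738, hg38 chr1:160400586-160428678, plus strand) encodes a four-pass membrane protein that recruits PRICKLE. In wild-type its 3 libraries held 135, 98 and 138 reads, or 5.66, 4.64 and 4.76 CPM. Clone 1 had 1, 6 and 1 reads, clone 2 had 2, 3 and 2, and the libraries labelled rescue had 0, 0 and 0. Every wild-type library lay far above every library of the other 3 groups, whose values overlapped between the clones. From summed reads, VANGL2 was 45.4-fold lower in clone 1 than in wild-type (exact 95% interval 22.8 to 106) and 50.2-fold lower in clone 2 (24.1 to 126). With a floor of 3 counts over the group (0.0379 CPM), the libraries labelled rescue were at least 132-fold below wild-type and 2.64-fold below clone 2. The floors take the reads of the other group as exact. They leave out its counting error, which is large for the 7 reads of clone 2. The intervals cover counting error only. The fitted log2 fold changes were -5.44 (SE 0.305) in clone 1 and -5.58 (SE 0.314) in clone 2. Without the second library of clone 1, which holds 6 of that clone's 8 reads, the clone 1 value was -6.64. Between the clones the ratio of clone 2 to clone 1 was 0.905 (exact 95% interval 0.279 to 2.86), and the sign of the fitted difference, -0.13, turned with the libraries used, to 1.06 without the second library of clone 1 and to 0.12 without the first of clone 2.

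VANGL1, the close paralogue of VANGL2, stayed at a moderate level in all groups. Its gene (ENSG00000173218) lies at hg38 chr1:115641953-115698224 on the plus strand. Levels were 35.3, 35.8 and 34.9 CPM in wild-type, 24.7, 25.2 and 23.5 in clone 1, 32.2, 32.7 and 33.9 in clone 2, and 38.0, 38.4 and 39.6 in the libraries labelled rescue. The 4 groups did not overlap, and clone 1 was the lowest. Against wild-type the log2 fold change was -0.53 (SE 0.0518) in clone 1 and -0.10 (SE 0.0499) in clone 2. The clone 2 value was not called, but it was called, at -0.12 to -0.14, without filtering on low counts and without 1 of 6 libraries in turn, namely the first or the third of clone 1, the third of clone 2 or any of those labelled rescue. In the libraries labelled rescue VANGL1 was higher than in clone 2 by 0.23 (SE 0.0488) and higher than in wild-type by 0.13 (SE 0.0479). The latter call was lost without the third wild-type library (0.12) or the third library labelled rescue (0.11). Per kilobase of merged exons, VANGL2 made up 19.4% ± 1.77 (SD, n = 3) of the summed VANGL level in wild-type, 0.685% ± 0.633 in clone 1 and 0.537% ± 0.218 in clone 2. The summed level of both was 4.84 ± 0.106 CPM per kb in wild-type cells, 2.72 ± 0.114 in clone 1, 3.65 ± 0.0955 in clone 2 and 4.27 ± 0.0902 in the libraries labelled rescue, where VANGL1 supplied all of it.

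**Figure D1:**
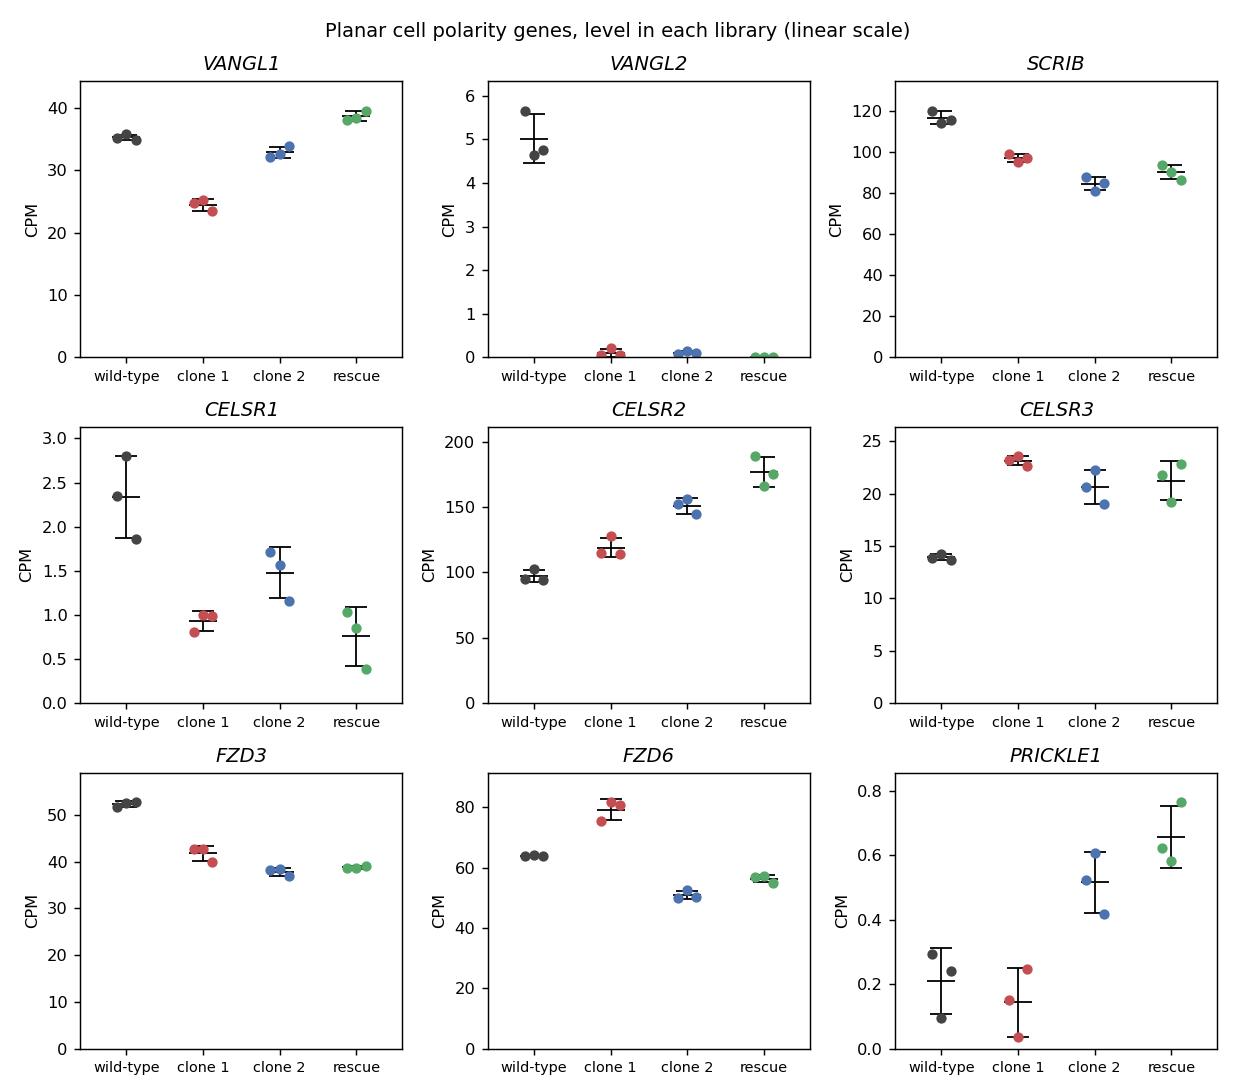
Level of each planar cell polarity gene with a row, in CPM on linear axes that start at 0 and differ between panels. Points are the 3 libraries of a group, and bars are mean and SD. VANGL2 stands at 4.64 to 5.66 CPM in wild-type and at or below 0.213 CPM in all 9 other libraries, while CELSR2 is lowest in wild-type and highest in the libraries labelled rescue.

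The windows just before the start sites are shown for VANGL2, which was nearly lost, for VANGL1, which was not, and for CELSR2, which was higher in the other 3 groups than in wild-type. An E-box, the 6-base element CANNTG bound by basic helix-loop-helix factors, is the element such factors share, and capitals mark each one found. Sequences are the 250 bases before the RefSeq start (GRCh38.p14), written 5′ to 3′ on the gene's strand, which is plus for all 3: chr1:160400314-160400563 for VANGL2, chr1:115641720-115641969 for VANGL1 and chr1:109249289-109249538 for CELSR2.
VANGL2: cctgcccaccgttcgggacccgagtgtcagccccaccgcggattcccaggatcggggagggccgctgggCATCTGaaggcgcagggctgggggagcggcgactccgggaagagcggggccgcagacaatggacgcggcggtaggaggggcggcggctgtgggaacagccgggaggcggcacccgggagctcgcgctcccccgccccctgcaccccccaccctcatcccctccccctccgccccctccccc
VANGL1: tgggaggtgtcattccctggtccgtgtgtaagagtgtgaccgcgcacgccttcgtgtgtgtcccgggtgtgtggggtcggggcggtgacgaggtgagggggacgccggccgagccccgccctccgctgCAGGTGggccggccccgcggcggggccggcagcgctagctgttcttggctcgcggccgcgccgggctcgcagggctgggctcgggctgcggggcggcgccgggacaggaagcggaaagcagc
CELSR2: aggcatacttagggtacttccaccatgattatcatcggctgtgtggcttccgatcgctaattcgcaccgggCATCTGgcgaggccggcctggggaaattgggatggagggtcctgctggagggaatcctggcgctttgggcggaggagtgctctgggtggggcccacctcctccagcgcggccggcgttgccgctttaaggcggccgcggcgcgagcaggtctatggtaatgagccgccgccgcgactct
The VANGL2 window holds 1 E-box, CATCTG, whose first base lies at -181, with -1 the last base before the start. The CELSR2 window holds the same 6 letters at -179, and the VANGL1 window holds CAGGTG at -122. A second VANGL1 start (window chr1:115642379-115642628) had no match, and neither did the CELSR3 and PRICKLE1 windows. Windows of FZD3, FZD6 and SCRIB were not searched, and none was available for CELSR1. CANNTG reads as CANNTG on the other strand too. It occurs in 61.8% of 35116 promoter windows of this length, so a single match sets none of these windows apart. The more specific CAGCTG occurs in 14.0% of the windows and in none of those of VANGL2, VANGL1 and CELSR2. CACCTG, or CAGGTG on the other strand, occurs in 17.5%, and the VANGL1 element counts among these. GGAAGGAA, or TTCCTTCC on the other strand, is a short repeat of the element favoured by the Ewing sarcoma fusion protein. It occurs in 3.06% of all windows and in none of the 3 shown. All these are matches of letters and were not tested as binding sites.

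Genes around VANGL2 stayed nearer to their wild-type levels. Of the tested genes with a start within 500 kb, 14 in number and apart from VANGL2 itself, the median log2 fold change from wild-type was -0.06 in clone 1, -0.09 in clone 2 and -0.01 in the libraries labelled rescue. The nearest, NHLH1 at 33.5 kb upstream, was below 1 CPM in all groups. COPA, a coat protein of vesicles that starts 57.2 kb upstream, stood at 293 CPM in wild-type cells, 264 in clone 1, 282 in clone 2 and 291 in the libraries labelled rescue. NCSTN, a subunit of gamma-secretase that starts 57.3 kb upstream, stood at 71.5, 80.6, 79.1 and 87.1 CPM in the same order. The lowest values belonged to IGSF9, an immunoglobulin superfamily gene 455 kb upstream, with log2 fold changes of -2.91 in clone 1, -1.23 in clone 2 and -2.07 in the libraries labelled rescue. On the downstream side only 1 tested gene lay in the window, at 494.4 kb.

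**Figure D2:**
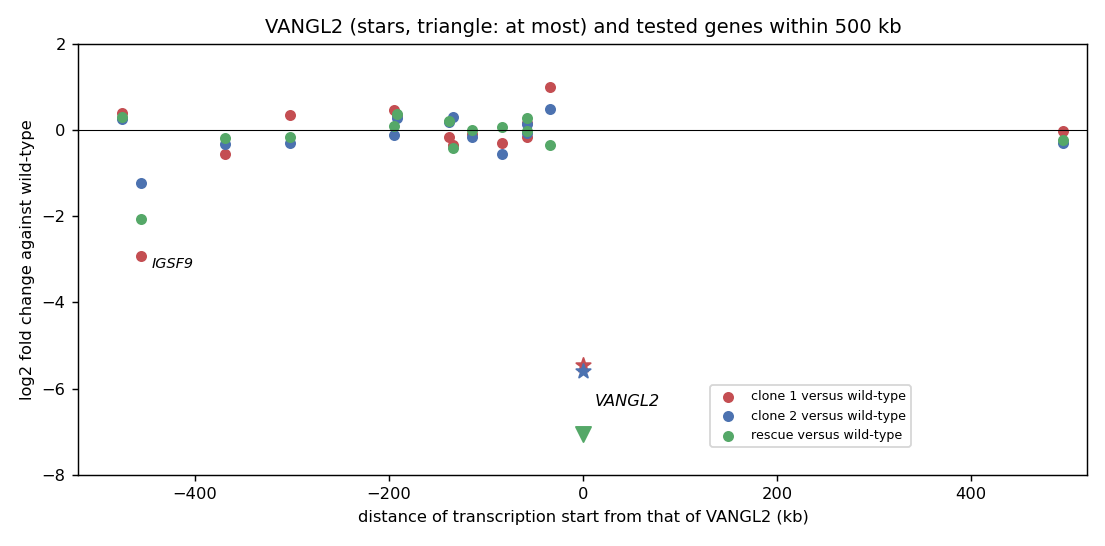
Log2 fold change from wild-type of VANGL2 and of the tested genes within 500 kb, against the distance of each start from that of VANGL2 in kb. Stars are VANGL2 in the clones, the triangle is its upper limit in the libraries labelled rescue, and circles are the other genes, which spread around 0 except IGSF9 at -455 kb.

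The 3 CELSR genes, large seven-pass cadherins that link the polarity complexes of neighbouring cells, moved in different directions. CELSR1 (ENSG00000075275, hg38 chr22:46360834-46537170, minus strand) was low throughout, with 54 to 59 reads per wild-type library. Its levels were 2.35, 2.80 and 1.86 CPM in wild-type, 0.800, 0.996 and 0.988 in clone 1, 1.71, 1.57 and 1.16 in clone 2, and 1.03, 0.852 and 0.382 in the libraries labelled rescue. All 9 libraries of the other 3 groups lay below all 3 of wild-type, and clone 1 overlapped the libraries labelled rescue. Log2 fold changes from wild-type were -1.29 (SE 0.24) in clone 1, -0.62 (SE 0.219) in clone 2 and -1.60 (SE 0.245) in the libraries labelled rescue. The clone 2 call was lost without the second wild-type library or the third of clone 2, at -0.49 each. The fall from clone 2 to the libraries labelled rescue, -0.98 (SE 0.269), was no longer called without the third of the latter, at -0.65. Clone 2 was higher than clone 1 by 0.67 (SE 0.263), and this call was lost with the Wald test of DESeq2 (0.67) and without the first library of clone 1 (0.58), the first of clone 2 (0.52) or the second of clone 2 (0.64).

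CELSR2 (ENSG00000143126, hg38 chr1:109250019-109275750, plus strand) was the most abundant of the 3 and was lowest in wild-type. Its levels were 94.8, 102.8 and 94.0 CPM in wild-type, 115, 128 and 114 in clone 1, 152, 156 and 145 in clone 2, and 189, 166 and 176 in the libraries labelled rescue. No group overlapped another. The log2 fold change from wild-type was 0.30 (SE 0.0452) in clone 1, 0.64 (SE 0.0446) in clone 2 and 0.87 (SE 0.0438) in the libraries labelled rescue, which were above clone 2 by 0.23 (SE 0.0424).

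CELSR3 (ENSG00000008300, hg38 chr3:48636469-48662915, minus strand), which is best known from axon guidance, was also higher outside wild-type. It was measured at 13.9, 14.3 and 13.7 CPM in wild-type, 23.2, 23.6 and 22.7 in clone 1, 20.7, 22.3 and 19.0 in clone 2, and 21.8, 19.2 and 22.9 in the libraries labelled rescue. Wild-type lay below all others, and clone 2 overlapped the libraries labelled rescue. Log2 fold changes from wild-type were 0.74 (SE 0.0698), 0.57 (SE 0.0714) and 0.61 (SE 0.0697) for clone 1, clone 2 and the libraries labelled rescue, the last of which differed from clone 2 by 0.04 (SE 0.0659, not called). Clone 2 was lower than clone 1 by 0.17 (log2 fold change -0.17, SE 0.066). That call was lost with upper quartile scaling (-0.11), with DESeq2 (-0.16), and without the second library of clone 1 (-0.16), the first of clone 2 (-0.17) or the third of clone 2 (-0.12). On the per-kilobase scale the summed CELSR level was 9.06 ± 0.447 CPM per kb in wild-type cells, 11.4 ± 0.634 in clone 1, 13.8 ± 0.606 in clone 2 and 15.9 ± 1.02 in the libraries labelled rescue. CELSR2 supplied 86.9% of it in wild-type cells, 84.7% in clone 1, 88.4% in clone 2 and 89.4% to 90.3% in the single libraries labelled rescue, and CELSR1 made up 2.00% ± 0.315 in wild-type but 0.637% ± 0.0696 in clone 1, 0.833% ± 0.137 in clone 2 and 0.370% ± 0.158 in the libraries labelled rescue.

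The Frizzled receptors FZD3 and FZD6 both lie on chromosome 8, and they differed in clone 1. FZD3 (ENSG00000104290, hg38 chr8:28494205-28574268, plus strand) had 51.6, 52.5 and 52.7 CPM in wild-type, 42.7, 42.7 and 39.97 in clone 1, 38.2, 38.5 and 36.9 in clone 2, and 38.5, 38.5 and 39.1 in the libraries labelled rescue. Wild-type was the highest group, and clone 2 and the libraries labelled rescue together spanned 36.9 to 39.1 CPM. FZD3 log2 fold changes from wild-type were -0.32 (SE 0.0447) in clone 1, -0.47 (SE 0.0455) in clone 2 and -0.43 (SE 0.0445) in the libraries labelled rescue. Its difference between clone 2 and clone 1, -0.14 (SE 0.0469), was not called with upper quartile scaling, at -0.08.

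FZD6 (ENSG00000164930, hg38 chr8:103298433-103332866, plus strand) had 64.0, 64.1 and 63.8 CPM in wild-type, 75.3, 81.7 and 80.7 in clone 1, 50.1, 52.5 and 50.4 in clone 2, and 56.9, 57.3 and 54.9 in the libraries labelled rescue. No group overlapped another: clone 1 was above wild-type, and both groups made from clone 2 were below it. The log2 fold change was 0.31 (SE 0.0406) in clone 1 and -0.33 (SE 0.0428) in clone 2, a difference between the clones of -0.64 (SE 0.042). Libraries labelled rescue were above clone 2 by 0.15 (SE 0.043) and below wild-type, at -0.18 (SE 0.0416). FZD6 overlaps BAALC-AS1 on the opposite strand, which was measured at 2.31 to 2.53 CPM over the groups. Per kilobase, FZD3 and FZD6 summed to 19.5 ± 0.0392 CPM per kb in wild-type cells, 22.5 ± 0.807 in clone 1, 15.3 ± 0.361 in clone 2 and 16.7 ± 0.29 in the libraries labelled rescue, with FZD6 at 80.6% to 86.5% of the sum.

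PRICKLE1 (ENSG00000139174, hg38 chr12:42456757-42590355, minus strand), the LIM-domain partner of VANGL proteins, was close to the limit of detection. It had 7, 2 and 7 reads in wild-type, 3, 1 and 6 in clone 1, 15, 12 and 9 in clone 2, and 17, 15 and 20 in the libraries labelled rescue. As levels these were 0.294, 0.0948 and 0.241 CPM, then 0.150, 0.0356 and 0.247, then 0.524, 0.607 and 0.417, and then 0.624, 0.581 and 0.765. Clone 2 and the libraries labelled rescue lay above the other groups, and it is through them that PRICKLE1 passed the filter on low counts, just as VANGL2 passed through wild-type. From summed reads, clone 2 was 2.38 times wild-type (exact 95% interval 1.29 to 4.59), the libraries labelled rescue 3.03 times (1.71 to 5.69) and clone 1 0.638 times (0.259 to 1.5). Clone 2 was 3.72 times clone 1 (1.81 to 8.41). On the log2 scale the fitted clone 2 change from wild-type was 1.23 (SE 0.445), a call lost without the second wild-type library (0.94) or the second of clone 2 (1.11). Without the third library of clone 1 the fitted difference between clone 2 and clone 1 moved from 1.86 to 2.55 and was called both times. That between clone 1 and wild-type moved from -0.62 to -1.33 and was called neither time. The gene overlaps PPHLN1 on the opposite strand, at 102 to 118 CPM. Since it is not given whether reads were counted by strand, the PRICKLE1 values are uncertain.

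SCRIB (ENSG00000180900, hg38 chr8:143790920-143815379, minus strand), a scaffold of the basolateral membrane that also binds VANGL2, was highest in wild-type. Its levels were 120.3, 114 and 116 CPM in wild-type, 99.0, 95.3 and 97.3 in clone 1, 87.9, 81.3 and 84.9 in clone 2, and 93.9, 90.4 and 86.6 in the libraries labelled rescue. Wild-type, clone 1 and clone 2 did not overlap, and the libraries labelled rescue overlapped clone 2. SCRIB log2 fold changes from wild-type were -0.26 (SE 0.0381) in clone 1, -0.46 (SE 0.0388) in clone 2 and -0.37 (SE 0.038) in the libraries labelled rescue. The last of these groups differed from clone 2 by 0.09 (SE 0.0393), which was not called. It was called with no filter (0.12), without any 1 of the wild-type or clone 1 libraries (0.10), and without the first library of clone 2 or the third labelled rescue (0.13 each).

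The 3 genes on chromosome 8 were read against other genes there, since the median log2 fold change of the 486 genes of that chromosome at 1 CPM or more was -0.21 in clone 1, -0.22 in clone 2 and -0.21 in the libraries labelled rescue. Relative to this median SCRIB was at -0.06 in clone 1 and -0.24 in clone 2, and FZD3 at -0.12 and -0.25. FZD6 in clone 1 stood 0.52 above the median, higher than 86.4% of the genes of the chromosome. In clone 2 it was at -0.11 relative to the median, and in the libraries labelled rescue at 0.02. For CELSR3 the median of 774 chromosome 3 genes was -0.11 in clone 1 and -0.20 in clone 2, so that it stood 0.85 and 0.77 above them. Medians were within 0.07 of 0 against wild-type on chromosomes 1, 12 and 22, which hold the other members. VANGL2 was below nearly all of the 1376 chromosome 1 genes in both clones. The part of the chromosome-wide shifts in these results was not tested.

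**Figure D3:**
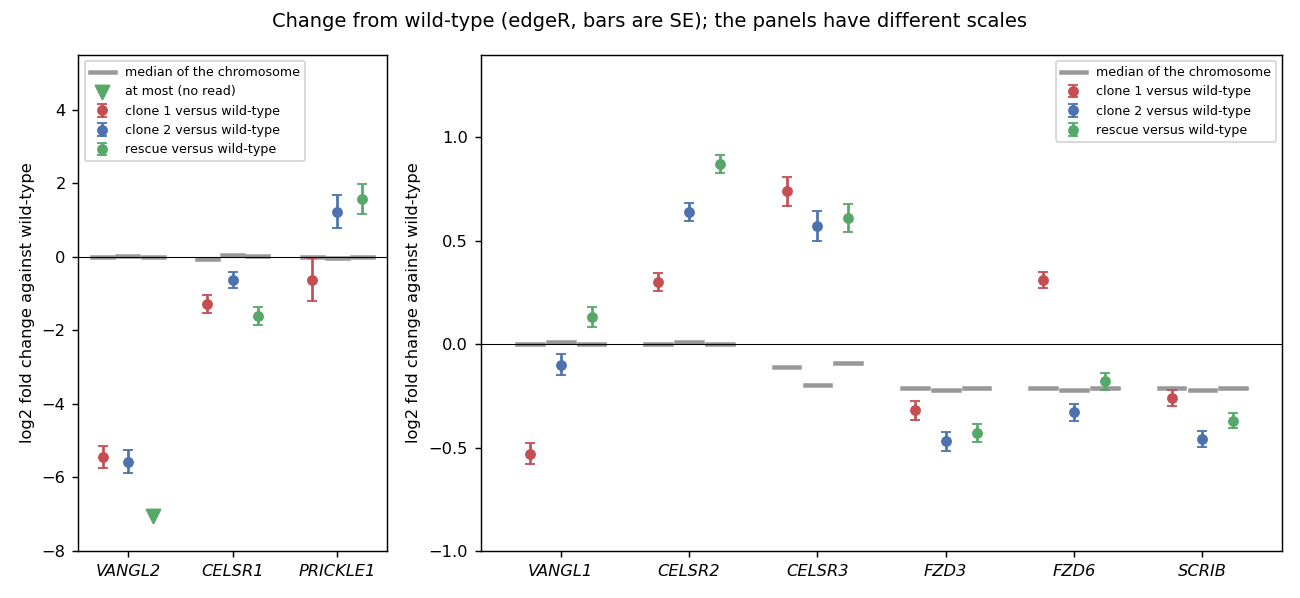
Log2 fold change from wild-type of each planar cell polarity gene in clone 1, clone 2 and the libraries labelled rescue, with SE bars. The panels have different scales, grey lines are medians of all genes of the same chromosome, and the triangle is the upper limit for VANGL2 where no read was found. VANGL2 and CELSR1 are below their chromosome medians in all 3 comparisons, CELSR2 and CELSR3 are above, and FZD6 changes sign between the clones.

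A gene was called at an adjusted p under 0.05 in edgeR's quasi-likelihood test over all 17084 tested genes. In clone 1 against wild-type 61.5% of all tested genes were called (30.8% higher and 30.7% lower), and among the 9 members 3 were higher and 5 lower. In clone 2 against wild-type 62.1% of all genes were called (31.5% higher and 30.6% lower), and again 3 members were higher and 5 lower. PRICKLE1 was not called in clone 1, and VANGL1 was not called in clone 2. Between the libraries labelled rescue and clone 2 the share of all genes was 39.2% (19.3% higher and 19.9% lower), with 3 members higher and 2 lower. The members lower there numbered 1 without the third library labelled rescue. They also numbered 1 in a fit on these 2 groups alone, where VANGL2 had too few reads to be tested. Against wild-type the libraries labelled rescue had 58.4% of all genes called (28.5% higher and 29.9% lower), with 4 members higher and 5 lower. Between clone 2 and clone 1 it was 62.2% (30.3% higher and 31.9% lower), with 4 members higher and 4 lower, or 4 and 2 with upper quartile scaling. The members' median log2 fold change was -0.32 in clone 1 and -0.33 in clone 2 from wild-type, where that of all tested genes was 0.01 in each. It was 0.09 between the libraries labelled rescue and clone 2, -0.18 between them and wild-type and -0.13 between the clones, beside 0.0 for all genes in each. Comparisons with wild-type share the same 3 wild-type libraries. The groups did not overlap for 8 members in clone 1 against wild-type (65.2% of all tested genes), 9 in clone 2 against wild-type (64.4%) and 9 in the libraries labelled rescue against wild-type (61.9%). They did not overlap for 6 members between the libraries labelled rescue and clone 2 (47.6% of all tested genes) and for 8 between the clones (65.6%). Since the members were chosen with these results known, nothing is read from these counts.

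Levels of different genes can be set side by side only per length. In wild-type the order per kilobase of merged exons was SCRIB at 18.8 ± 0.514 CPM per kb, FZD6 at 15.7 ± 0.0289, CELSR2 at 7.87 ± 0.392, VANGL1 at 3.90 ± 0.0476 and FZD3 at 3.79 ± 0.0405. Then came CELSR3 at 1.00 ± 0.0223 and VANGL2 at 0.940 ± 0.105, which did not differ beyond their spread, CELSR1 at 0.182 ± 0.0365 and PRICKLE1 at 0.0255 ± 0.0125. In the libraries labelled rescue CELSR2, SCRIB and FZD6 lay close together, at 14.3 ± 0.923, 14.6 ± 0.585 and 13.9 ± 0.315 CPM per kb. Among the members, the scaffold, 1 of 3 CELSR genes and 1 of the 2 Frizzled receptors thus held the most RNA per length throughout. VANGL2 was never the main VANGL gene.

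Patterns most like that of VANGL2 were sought among 11882 genes at 1 CPM or more in wild-type, by Pearson's r of log2 CPM over the 12 libraries. Among the highest were SC5D (r = 0.988), an enzyme of cholesterol synthesis, WDFY1 (0.984), DDX18 (0.983), an RNA helicase, and TRIM35 (0.982). In total 78 genes reached r of 0.95 or more. These points share libraries and fall into 4 groups, so r mainly records which groups are high, and the sizes of the changes differ widely. SC5D stood at 68.8 ± 3.76 CPM in wild-type cells, 33.5 ± 2.48 in clone 1, 32.3 ± 0.575 in clone 2 and 27.7 ± 0.864 in the libraries labelled rescue. DDX18 stood at 257, 201, 197 and 189 CPM in the same order, a far smaller relative change than that of VANGL2. Among the members themselves no gene other than VANGL2 was reduced to a few reads.

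The wider pathway was described with a list of 42 other genes, of which 39 had a row and were tested, while WNT5B, WNT11 and PRICKLE4 are not analysed here. This list too was drawn up with earlier results of these data known, and the genes named from it had the largest called changes. Their adjusted p-values set a difference against the spread between libraries of a group, which may be technical, and do not test the knockout. In clone 1, 18 of the 39 rose from wild-type, 11 fell and 10 were not called, with a median log2 fold change of 0.07. In clone 2, 9 were higher, 22 lower and 8 not called, with a median of -0.14. The clone 2 split was 12 higher and 15 lower with upper quartile scaling. Between the libraries labelled rescue and clone 2, 8 were higher and 8 lower with 23 not called, and against wild-type 7 were higher and 20 lower. The background shares and medians given above for all genes apply here too.

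WNT5A, the ligand most tied to this pathway, was measured at 41.1, 39.7 and 39.2 CPM in wild-type, 16.8, 17.8 and 17.6 in clone 1, 40.2, 38.9 and 46.0 in clone 2, and 33.7, 31.1 and 36.9 in the libraries labelled rescue. It fell in clone 1 with a log2 fold change of -1.19 (SE 0.0643, edgeR adjusted p = 1.58e-19). Clone 2 overlapped wild-type, with 0.06 (SE 0.0567, edgeR adjusted p = 0.372). The difference between the clones was 1.25 (SE 0.0644, edgeR adjusted p = 2.75e-20).

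Of the 8 receptors and co-receptors, 6 rose and 1 fell in clone 1, while in clone 2 there were 2 higher and 5 lower. Over all tested genes, 61.5% and 62.1% were called in either direction in these comparisons, and nothing is read from the counts by role. ROR2, a receptor tyrosine kinase for WNT5A, had 23, 25 and 27 reads in wild-type, none in clone 1, 4, 7 and 5 in clone 2, and 7, 1 and 1 in the libraries labelled rescue. It was thus high in wild-type alone, and it passed the filter on low counts only through wild-type, so its differences from wild-type are given without p-values. With the floor of 3 counts, which takes the wild-type reads as exact, ROR2 was at least 24.5-fold below wild-type in clone 1. It was 4.44-fold below wild-type in clone 2 (exact 95% interval 2.56 to 8.16). In the libraries labelled rescue it was 8.93-fold below wild-type (4.46 to 20.3). The fitted log2 value there, -3.11, was -4.55 without the first of these libraries, which holds 7 of the 9 reads.

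ROR1, the paralogue of ROR2, went the other way in clone 1. It had 15.9 ± 1.08 CPM in wild-type cells, 27.6 ± 0.336 in clone 1, 12.9 ± 1.2 in clone 2 and 13.1 ± 1.11 in the libraries labelled rescue. Between the clones its log2 fold change was -1.11 (SE 0.0705, edgeR adjusted p = 3.11e-17). GPC4, a cell-surface proteoglycan that helps Wnt ligands reach their receptors, was 9.15 ± 1.3 CPM in wild-type cells, 14.0 ± 0.297 in clone 1, 14.9 ± 0.243 in clone 2 and 16.4 ± 0.554 in the libraries labelled rescue. It rose in clone 2 by 0.72 (SE 0.0832, edgeR adjusted p = 8.17e-10) and in the libraries labelled rescue by 0.86 (SE 0.0802, edgeR adjusted p = 3.48e-12), both from wild-type.

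Among the 7 tested genes of the cytoplasmic core, which bind Dishevelled, PRICKLE or VANGL or are paralogues of these, 4 were higher and 2 lower in clone 1, and 2 were higher and 3 lower in clone 2. NOS1AP, an adaptor that binds SCRIB and VANGL, was 8.59 ± 0.717 CPM in wild-type cells, 12.3 ± 1.18 in clone 1, 17.5 ± 1.53 in clone 2 and 8.69 ± 1.4 in the libraries labelled rescue. It rose in clone 2 by 1.02 (SE 0.093, edgeR adjusted p = 1.88e-12) and was lower in the libraries labelled rescue than in clone 2, at -1.01 (SE 0.0916, edgeR adjusted p = 6.94e-12). The latter overlapped wild-type, with a difference of 0.01 (SE 0.103). DACT1, which binds Dishevelled, was lower in the libraries labelled rescue than in clone 2, at -0.35 (SE 0.103, edgeR adjusted p = 0.00534). Of the 3 genes that act with SCRIB at the basolateral membrane, 2 were higher and none lower in clone 1, and 1 was higher and 2 lower in clone 2. For both of these roles the shares of all tested genes called were again 61.5% in clone 1 and 62.1% in clone 2.

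Of the 4 genes of the protocadherin module, a second polarity system of giant cadherins and their kinase, 3 were higher and 1 lower in clone 1, and 1 was higher and 2 lower in clone 2, beside 61.5% and 62.1% of all tested genes called in either direction. DCHS2, a giant cadherin, had 164.6, 162 and 165 CPM in wild-type, 276, 286 and 281 in clone 1, 88.9, 91.6 and 93.4 in clone 2, and 69.5, 60.9 and 71.9 in the libraries labelled rescue. No 2 groups overlapped, and clone 1 lay above wild-type where the others lay below it. The DCHS2 difference between the clones was -1.62 (SE 0.0394, edgeR adjusted p = 2.95e-31). From wild-type it fell by 0.85 on the log2 scale in clone 2 (SE 0.0402, edgeR adjusted p = 3.86e-21) and by 1.28 in the libraries labelled rescue (SE 0.0409, edgeR adjusted p = 1.07e-26), and the fall from clone 2 to these was 0.44 (log2 fold change -0.44, SE 0.0429, edgeR adjusted p = 5.54e-11).

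DCHS1, its paralogue, had 6.18 ± 0.0974 CPM in wild-type cells, 11.5 ± 1.42 in clone 1, 5.22 ± 0.921 in clone 2 and 3.51 ± 0.0752 in the libraries labelled rescue. It rose in clone 1 by 0.90 (SE 0.104, edgeR adjusted p = 8.37e-10) and was lower in clone 2 than in clone 1, at -1.11 (SE 0.108, edgeR adjusted p = 7.81e-12). In the libraries labelled rescue it was below clone 2, at -0.60 (SE 0.132, edgeR adjusted p = 0.000317), and below wild-type, at -0.82 (SE 0.127, edgeR adjusted p = 5.88e-07). FJX1, the human relative of the fly kinase four-jointed, had 12.8 ± 0.653 CPM in wild-type cells, 6.10 ± 0.445 in clone 1, 8.01 ± 0.313 in clone 2 and 8.33 ± 0.734 in the libraries labelled rescue. It fell from wild-type in clone 1 (log2 fold change -1.08, SE 0.0908, edgeR adjusted p = 1.43e-13) and in clone 2 (-0.68, SE 0.0867, edgeR adjusted p = 7.5e-09). DCHS1 and FJX1 lie on chromosome 11, where the median of 711 genes was -0.02 in clone 1, -0.60 in clone 2 and -0.55 in the libraries labelled rescue from wild-type, and -0.56 between the clones. On chromosome 4, which holds DCHS2, the median of 519 genes from wild-type was -0.06 in clone 1 and -0.20 in clone 2. It was -0.20 in the libraries labelled rescue from wild-type, and -0.17 between the clones. The part of these shifts in the values of DCHS1, FJX1 and DCHS2 was not tested.

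Of the 13 effectors, 2 were higher and 6 lower in clone 1, and 2 higher and 8 lower in clone 2. DAAM2, a formin that builds actin filaments below Dishevelled, had 83, 75 and 83 reads in wild-type, 4, 8 and 3 in clone 1, 94, 59 and 68 in clone 2, and 24, 31 and 18 in the libraries labelled rescue. Clone 2 overlapped wild-type in CPM, and clone 1 was the lowest group. DAAM2 fell in clone 1, with a log2 fold change of -3.95 (SE 0.278, edgeR adjusted p = 8.45e-16) and differed between the clones by 3.90 (SE 0.282, edgeR adjusted p = 1.66e-15). It was lower in the libraries labelled rescue than in clone 2, at -1.77 (SE 0.20, edgeR adjusted p = 1.73e-09), and than in wild-type, at -1.82 (SE 0.197, edgeR adjusted p = 1.63e-10). Among the 3 genes of trafficking and turnover, 1 was higher and none lower in clone 1, and 1 was higher and 2 lower in clone 2. The counts of effectors and of these genes stand beside 61.5% and 62.1% of all tested genes called in either direction.

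**Figure D4:**
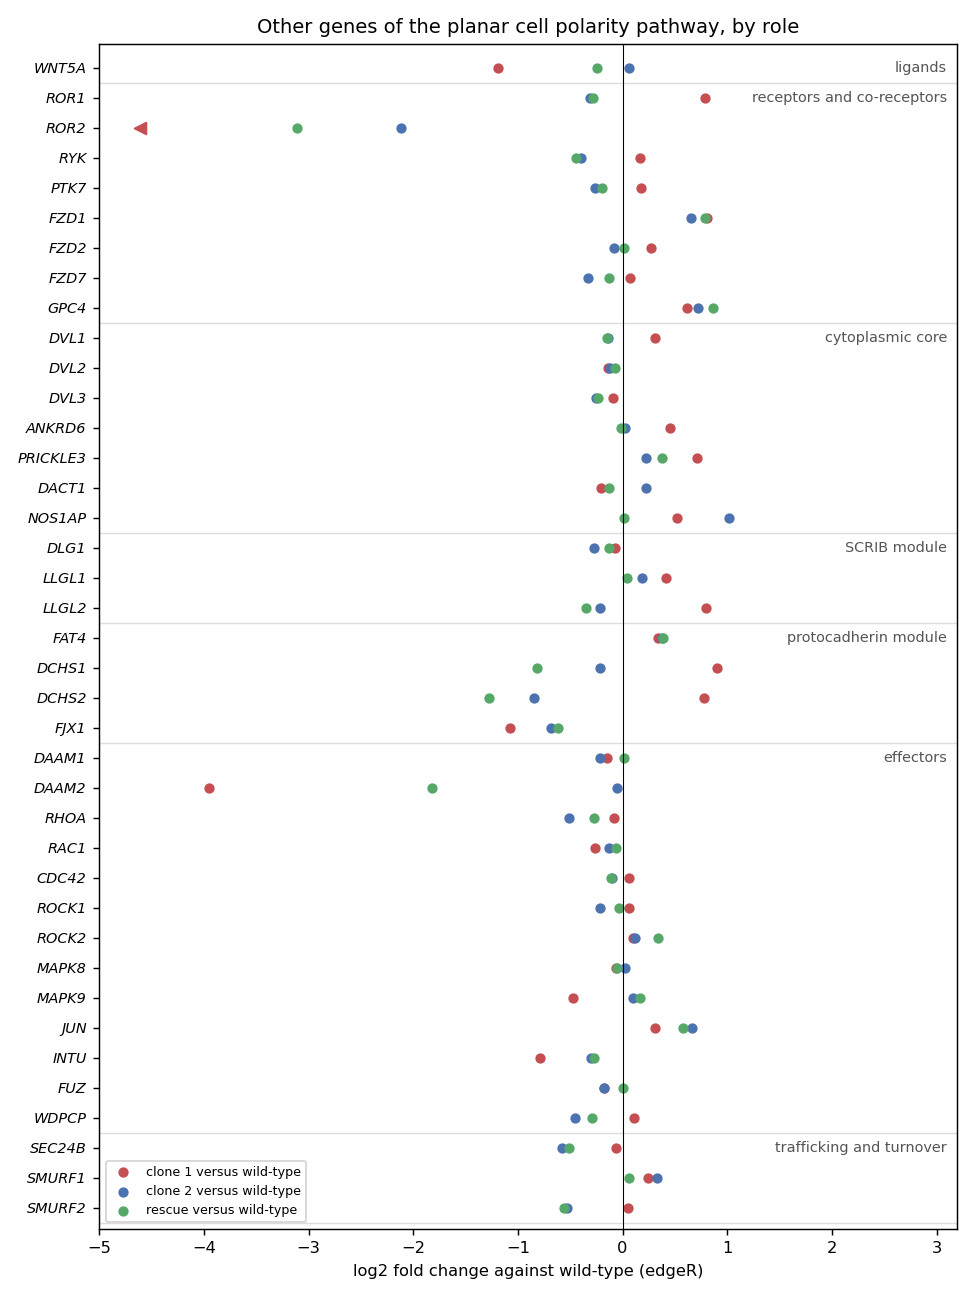
Log2 fold change from wild-type of the 39 other tested genes of the pathway, grouped by role, in clone 1, clone 2 and the libraries labelled rescue. The triangle is the upper limit for ROR2 in clone 1, where no read was found. ROR2 is low in all 3 comparisons, and DAAM2 is low in clone 1 and the libraries labelled rescue but at -0.05 in clone 2.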

How the data were processed

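Polyadenylated RNA of TC71 cells was sequenced from stranded libraries, per the labels' protocols. The authors deposited raw counts of reads per gene, 1 column for each of 12 libraries, which were matched to groups by title, and no column was left unused (0). FastQC, STAR and the hg38 build are named in the submitters' processing notes. Not given in the sources used here are versions, the program that counted reads, its strand setting and the gene models, so genes that overlap on opposite strands are uncertain. Symbols were matched for 20717 and GENCODE release 29 coordinates for 20825 of 21569 identifiers.

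Differences were tested in R 4.3.3 with edgeR 4.0.16 (quasi-likelihood test, TMM scaling, 1 mean per group, all 12 libraries, 8 residual degrees of freedom). Genes were kept at the CPM equivalent of a count of 10 or more in as many single libraries as a group holds. Benjamini-Hochberg adjustment ran over the 17084 genes kept, which held 99.9% of counts. The procedure was tested on simulated data. The biological coefficient of variation was 2.95%. SE is the absolute log2 fold change divided by the square root of F. No 2 libraries of the same group agreed within sampling noise (chi-square per degree of freedom 1.54 to 3.16 within groups). Levels per kilobase used merged GENCODE exons. Ratios of few reads have exact conditional 95% intervals. The members, lists and tests were chosen with earlier results of these data known. Named genes were ID2, all members, the 5 genes most like VANGL2 (1 is not reported here), and per comparison up to 5 called pathway genes with the largest change, at 1 CPM or more in a group and without overlap. Genes in the closing section were named because the clones differed. Alternatives were limma-voom (3.58.1), the Wald test of DESeq2 1.42.0, its size factors, upper quartile scaling, no filter, 1 CPM in at least 3 libraries, fits on the 2 groups compared, a replicate block and leaving out each library.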

Additional observations from a re-analysis of the deposited data

Results flagged for a closer look

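The changes of the 2 clones from wild-type were compared directly, as clone 2 against clone 1 in edgeR with Benjamini-Hochberg adjustment over all genes, for 48 genes (9 members and 39 of the wider pathway). Of these, 12 stood out: 7 were called in opposite directions in the clones, and 5 differed by at least 2-fold between them without that. Of all tested genes 62.2% were called between the clones, which is a looser rule than this flag. The share of all genes that would meet the flag was not counted, so nothing is read from the count of 12.

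Among the members, FZD6 was higher than wild-type in clone 1 and lower in clone 2, with a log2 difference between the clones of -0.64. PRICKLE1 was near the limit of detection and was higher in clone 2 than in clone 1 by 1.86. It passed the filter on low counts through clone 2 and the libraries labelled rescue, where it is high. Its values are also uncertain because the gene overlaps PPHLN1. Opposite directions were also seen for 6 pathway genes, each higher than wild-type in clone 1 and lower in clone 2. These were the receptors ROR1 (-1.11 between the clones), RYK (-0.57) and PTK7 (-0.44), the Dishevelled gene DVL1 (-0.45), LLGL2, a partner of SCRIB (-1.02), and the cadherin DCHS2 (-1.62). WNT5A (1.25) and DAAM2 (3.90) were low in clone 1 and near wild-type in clone 2. DCHS1 (-1.11) was high in clone 1 alone. ROR2 was lower than wild-type in both clones, and clone 2, with 16 reads, was at least 5.52-fold above clone 1, which had none.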

How the results depend on the processing

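The total of called members or pathway genes moved by under 1.5 times in each comparison under every alternative run. By direction, members lower in clone 2 than in clone 1 went from 4 to 2 with upper quartile scaling. Those lower in the libraries labelled rescue than in clone 2 went from 2 to 1 without the third library labelled rescue. They also numbered 1 in the fit on these 2 groups, where VANGL2 had too few reads to be tested. Without 1 library in turn, 6 to 9 members were called in clone 2 against wild-type and 6 to 8 between the clones, and other settings gave 7 to 9 and 6 to 8. Of 540 member values without 1 library, 13 lost and 14 gained a call and 2 changed sign; of 350 under other settings these were 4, 3 and 1. All 3 sign changes were of VANGL2 between the clones, at 0.15 with limma-voom and from -0.52 to 1.06 without 1 library. Of the wider pathway, 25 results were checked, each a gene in a comparison where its change was among the largest. Their direction and call were the same in all 300 values without 1 library and all 197 others. Not checked in this way, among others, were RYK, PTK7, DVL1 and LLGL2, the ROR1 changes from wild-type and that of DCHS2 in clone 1. The filter of 1 CPM gave no value for PRICKLE1 or ROR2. Among the values missing from fits on the 2 groups compared were those of VANGL2 between the clones and between the libraries labelled rescue and clone 2. Replicate numbers did not pair the libraries by their deviations from the group means: same-numbered libraries had r of -0.0363 to 0.0518 over the 5 comparisons, although between the clones all 6 libraries correlated best with their own number. With the replicate block the members called were 8 in clone 1 and 8 in clone 2 against wild-type, 6 between the libraries labelled rescue and clone 2 (5 without it), 9 between the former and wild-type and 8 between the clones. The added call was SCRIB, at 0.09. With 371 wild-type reads of VANGL2 and 7 or 8 in each clone, depth limits any comparison between the clones or with the libraries labelled rescue.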
